A study of Mus musculus with 6 samples.

Results

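The ubiquitin-conjugating (E2) enzymes and the TRIM family of ubiquitin ligases were taken from a table of transcript levels in alveolar macrophages, which patrol the air sacs of the mouse lung. Members were the rows whose gene name starts with Ube2 (30 genes) or with Trim followed by a digit (35 genes), 65 of 10539 genes listed. The cells came from C57BL/6 mice and all overexpressed the transcription factor C/EBPβ, in 3 libraries labelled CEBPβ and in 3 labelled CEBPβ-A, whose cells had also been given an adenovirus with A20 (A20-Ad). The labels' protocols speak of treatment with the indicated virus without saying which virus the CEBPβ cells received, how C/EBPβ was overexpressed or the age of the mice. The libraries are called replicates with no word on separate animals or cultures, so p-values here reflect library-to-library spread alone, and that spread may be technical. Ube2cbp meets the naming rule for E2 enzymes, yet its product binds an E2 enzyme and is not one itself.

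Ubiquitin is a small protein that is passed from an activating enzyme (E1) to an E2 enzyme and then, with the help of a ligase (E3), to a target. The E2 enzyme often decides which kind of ubiquitin chain is built: Lys48 chains mark a protein for the proteasome, while Lys63 and linear chains carry signals from Toll-like and TNF receptors. Some E2 enzymes carry ubiquitin-like proteins such as NEDD8 or ISG15 instead. Most TRIM proteins are ligases with a RING domain, B-boxes and a coiled coil, and many are induced by interferon and act in antiviral defence. Some lack the RING domain, so a Trim name alone does not make a member a ligase. A20, encoded by Tnfaip3, edits ubiquitin chains and is known to break the contact of the E2 enzymes Ube2n and Ube2d3 with their ligases, an act on the proteins that a transcript table does not measure.

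Promoter letters are shown first for the Trim genes that carry the core letters of an interferon-stimulated response element, the site bound by interferon-activated factors, since these genes recur in the results. RefSeq windows (GRCm38.p6) of 250 bases before to 50 after a start site were found for 25 of the 35 Trim genes and 23 of the 30 Ube2 genes. The letters GAAA, any 2 bases and GAAA again, searched on both strands with overlapping matches allowed, stood in the windows of 6 of the 25 Trim genes (Trim5, Trim12c, Trim21, Trim26, Trim30a and Trim34a) and of 0 of the 23 Ube2 genes. They were present in 3.44% of all 32851 RefSeq windows, in 21.9% of the 32 Trim windows and in 0% of the 33 Ube2 windows. Some genes have several windows, Trim30a among them, and the windows of Trim5 and Trim12c are much alike. Windows are therefore not independent observations. Of 27 genes with windows in a list of interferon response genes that holds no member, 11 carried the letters. Capitals mark the match in 5 windows, each written 5′ to 3′ along the gene's strand, namely chr7:102565433-102565732 (minus), chr7:104244207-104244506 (plus), chr7:104353300-104353599 (minus), chr7:104465144-104465443 (minus) and chr17:36836896-36837195 (plus).
Trim21: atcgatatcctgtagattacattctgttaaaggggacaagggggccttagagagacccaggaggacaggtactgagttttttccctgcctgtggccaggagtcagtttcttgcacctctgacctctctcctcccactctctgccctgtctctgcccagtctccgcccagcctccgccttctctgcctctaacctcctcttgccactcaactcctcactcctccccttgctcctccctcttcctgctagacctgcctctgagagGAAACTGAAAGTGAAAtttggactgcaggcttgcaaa
Trim34a: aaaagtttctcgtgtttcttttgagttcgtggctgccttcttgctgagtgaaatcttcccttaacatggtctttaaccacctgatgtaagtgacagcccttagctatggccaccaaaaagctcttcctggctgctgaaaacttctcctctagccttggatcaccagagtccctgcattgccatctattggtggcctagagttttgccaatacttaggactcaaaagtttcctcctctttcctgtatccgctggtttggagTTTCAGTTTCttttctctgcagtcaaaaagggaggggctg
Trim12c: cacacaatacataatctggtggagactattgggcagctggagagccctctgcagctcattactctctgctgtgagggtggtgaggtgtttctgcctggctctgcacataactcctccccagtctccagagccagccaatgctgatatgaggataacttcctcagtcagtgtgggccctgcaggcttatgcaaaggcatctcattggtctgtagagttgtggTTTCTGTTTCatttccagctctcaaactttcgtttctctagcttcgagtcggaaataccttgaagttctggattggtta
Trim30a: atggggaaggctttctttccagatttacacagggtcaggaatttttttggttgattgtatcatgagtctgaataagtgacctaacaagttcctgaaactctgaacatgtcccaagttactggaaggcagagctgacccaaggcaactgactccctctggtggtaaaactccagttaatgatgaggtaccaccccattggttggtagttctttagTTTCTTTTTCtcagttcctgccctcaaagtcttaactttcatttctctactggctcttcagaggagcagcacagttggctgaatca
Trim26: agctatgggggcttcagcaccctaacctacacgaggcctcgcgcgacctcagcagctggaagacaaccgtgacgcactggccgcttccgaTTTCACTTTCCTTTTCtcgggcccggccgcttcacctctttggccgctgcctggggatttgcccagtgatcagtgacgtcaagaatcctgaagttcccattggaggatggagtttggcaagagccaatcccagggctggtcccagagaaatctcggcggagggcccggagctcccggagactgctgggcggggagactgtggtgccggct

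In Trim21 a pair of matches overlapped, the first beginning 13 bases and the next 19 bases after the start site. The match of Trim34a began 10 bases after the start, that of Trim12c 29 bases before it and that of the Trim30a window shown 36 bases before it, so in these 4 genes it lay close to the start. Trim26 had an overlapping pair that began 160 and 154 bases before its start. The letters TTGCGNAA, a core form of the C/EBP site, were found in 0 of the 25 Trim genes and 0 of the 23 Ube2 genes, against 0.918% of all 27025 genes with windows. With so rare a match, 0 in so few genes says little. The letters GGGRNWYYCC (R, N, W and Y stand for sets of bases), a form of the NF-κB site, were found in 2 of the 23 Ube2 genes (Ube2d3 and Ube2q2). They were found in 0 of the 25 Trim genes and in 5.14% of all genes with windows. A match is a description of letters and shows no binding.

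The libraries themselves are described briefly. Values are FPKM, fragment numbers scaled to gene length and to library size, and they do not give the sequencing depth, so precision was judged only from the spread between libraries. FPKM summed to between 278907 and 313215 per library, and CEBPβ-A replicate 3 lay apart on the first principal component (25.7 against -11.7 to -0.095 in the other 5). Tnfaip3, the mouse gene of A20, stood at 8.76, 17.7 and 19.2 FPKM in CEBPβ and at 7.94, 15.5 and 7.32 in CEBPβ-A, so it was not higher in the libraries labelled as having received A20. The difference was -0.53 on the log2 scale (SE 0.34; adjusted p = 0.606 by limma), and the species of the A20 gene in the virus is not given in the sources used here. All 13 alveolar macrophage markers of the chosen list were listed and tested, with a summed level of 6916 to 7656 FPKM in CEBPβ and 7330 to 8275 in CEBPβ-A. Most of that sum was Chil3, with means of 4664 FPKM in CEBPβ and 5085 in CEBPβ-A. Of the 13 markers 10 were positive, against 46.6% of all genes tested. Groups were separated upward for 3 (Car4, Ear1 and Ear2) and downward for 1 (Itgax), together 30.8% against 16.8% of all genes, and 0 passed. Of markers of other cells, 2 of 6 neutrophil genes were listed (S100a8 and Camp, summed 201 to 253 and 288 to 305 FPKM), 2 of 6 epithelial genes (Scgb1a1 and Cdh1, 28.4 to 38.6 and 32.9 to 65.6), 3 of 5 genes of monocytes and interstitial macrophages (3.44 to 4.28 and 2.76 to 2.995) and 1 of 5 of endothelium and fibroblasts (0.684 to 1.005 and 0.551 to 0.657). The 7 lymphocyte markers of the list were not analysed here. The epithelial sum was highest in CEBPβ-A replicate 3, and the part of other cells in the results below was not tested.

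No Ube2 and no Trim gene passed the test between CEBPβ-A and CEBPβ, while most Trim genes had a somewhat lower mean in CEBPβ-A and Ube2 genes lay on either side. The test was limma on log2(FPKM + 1), a scale that understates the change of low genes, over 9617 genes with a mean of at least 1 FPKM, with Benjamini-Hochberg adjustment over all of them and a threshold of 0.05. That filter kept 28 Ube2 and 32 Trim genes. Of all genes tested 0.0520% passed, 0.0208% upward and 0.0312% downward, and of the members 0 of 60 did, with a smallest adjusted p of 0.588. At an unadjusted p under 0.05 there were 1 Ube2 gene (higher) and 6 Trim genes (lower), against 8.18% of all genes in either direction and 4.42% downward. CEBPβ-A and CEBPβ values were fully separated for 2 of 28 Ube2 genes, 1 higher and 1 lower in CEBPβ-A, and for 6 of 32 Trim genes, all lower, where 16.8% of all genes tested did not overlap in either direction, 7.89% upward and 8.86% downward. The separated Trim genes, 18.8% of those tested, lay above the downward background and near that of both directions together, and the Ube2 share of 7.14% was below the latter.

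**Figure D1:**
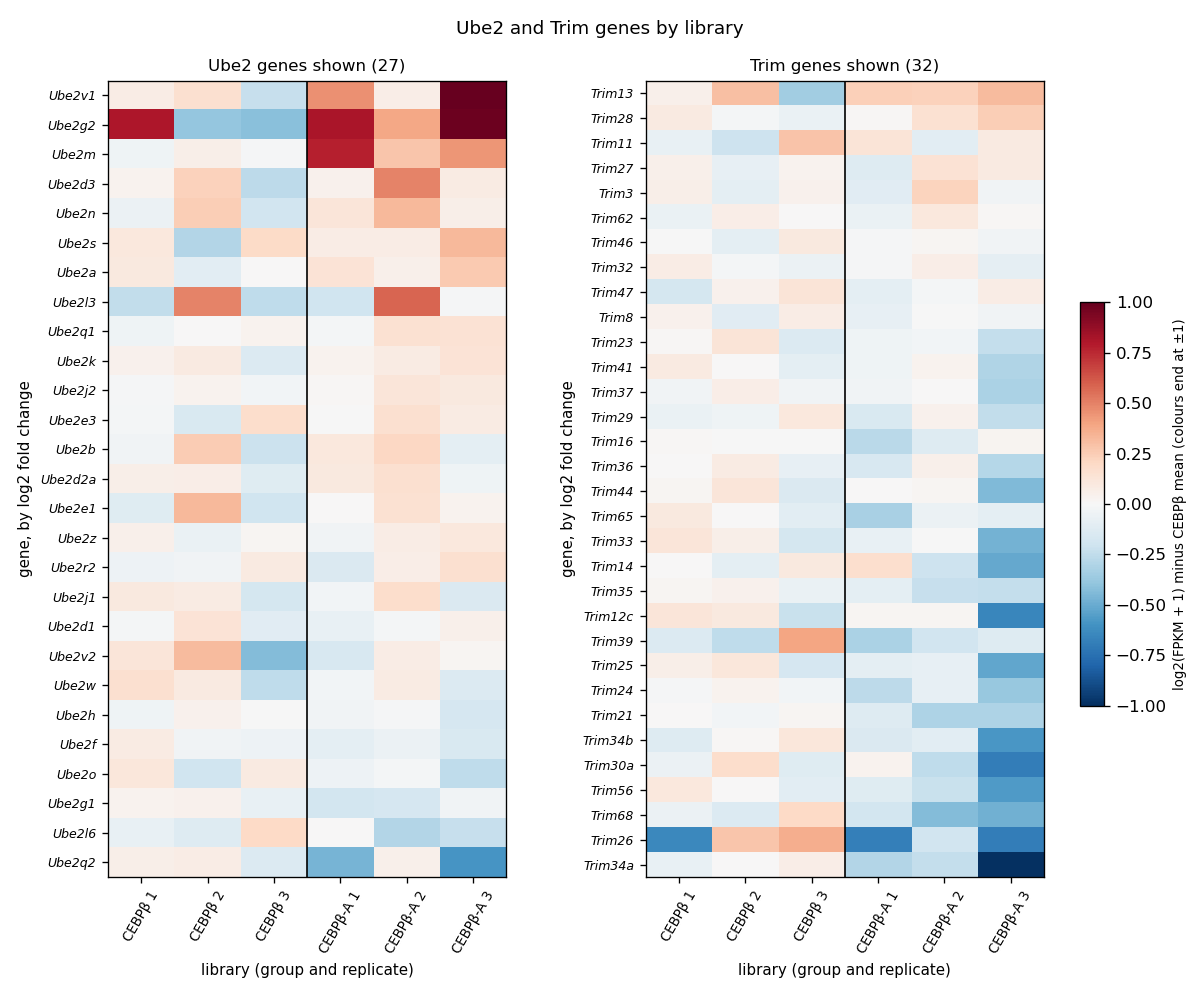
Each row is a gene that was tested and each column a library, with colour for log2(FPKM + 1) minus the CEBPβ mean of that gene, for 27 of the 28 Ube2 genes and all 32 Trim genes tested, ordered by log2 fold change. Of the Trim genes 19 have their lowest value in CEBPβ-A replicate 3 (59.4%, against 35.8% of all genes tested).

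Between the families, the median log2 fold change was 0.07 over 28 Ube2 genes, with 18 positive, and -0.13 over 32 Trim genes, with 26 negative, beside -0.01 over all genes tested, of which 53.4% were negative and 46.6% positive. The medians in single libraries, on the log2 scale against the CEBPβ mean, were -0.10, -0.02 and -0.26 for Trim genes in CEBPβ-A replicates 1, 2 and 3 and 0.01, 0.01 and -0.02 in CEBPβ replicates 1, 2 and 3. For Ube2 genes they were 0.00, 0.08 and 0.04 in CEBPβ-A and 0.03, 0.06 and -0.10 in CEBPβ, so the groups overlapped. The lowest of the 6 libraries was CEBPβ-A replicate 3 for 19 of 32 Trim genes (59.4%) and for 5 of 28 Ube2 genes (17.9%), against 35.8% of all genes tested. Without that library the Trim median was -0.05, with 22 of 32 negative, and the Ube2 median 0.07. The Ube2 median in turn was 0.00 without CEBPβ replicate 3 and 0.01 without CEBPβ-A replicate 2. With median-of-ratios scaling or quantile normalization 23 of 32 Trim genes were negative, and 20 and 21 of 28 Ube2 genes were positive, in that order.

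Transcript length differed between the families and moved with the fold changes. The median coding transcript had 1324.75 bases for Ube2 genes tested, 2881.25 for Trim genes and 2087.5 for all genes, and across all genes the fold change was lower for longer transcripts (Spearman rho -0.43 over 9570 genes, which are not independent replicates; -0.26 without CEBPβ-A replicate 3). With trends of length and GC content removed from each library, the medians were 0.05 for Ube2 and -0.10 for Trim genes. In bulk RNA, fewer cells of a type and less RNA per cell cannot be told apart.

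**Figure D2:**
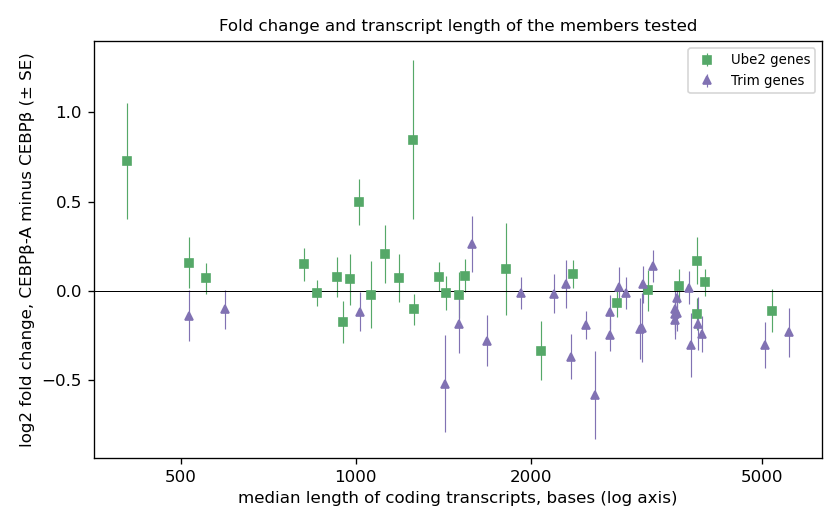
Log2 fold change (CEBPβ-A minus CEBPβ, ± SE from limma) against the median length of coding transcripts in bases on a log axis, for 28 Ube2 genes (squares) and 32 Trim genes (triangles). Trim genes lie mostly at greater lengths and below 0.

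Levels within each family spanned a wide range. Mean FPKM over the 6 libraries ran from 3.35 to 42.9 for the Ube2 genes tested (median 10.7) and from 1.21 to 49.5 for the Trim genes (median 6.08). The highest E2 enzyme was Ube2d2a, followed by Ube2b (27.1 FPKM), Ube2z (26.1), Ube2q1 (23.7) and Ube2r2 (21.7). Of the Trim genes the highest was Trim29, described in alveolar macrophages as a brake on innate responses, at 49.1, 49.96 and 55.6 FPKM in CEBPβ and 46.3, 52.9 and 43.2 in CEBPβ-A. It was followed by Trim30a (33.1), Trim25 (25.8), and Trim8 and Trim28 (both 23.7). Trim29 lay above Trim30a in each library, whereas Trim25, Trim8 and Trim28 had ranges that overlapped. The 5 members below the filter, which were not tested, were Ube2c, Ube2cbp, Trim5, Trim6 and Trim45, with means of 0.402 to 0.965 FPKM. Ube2c, the E2 enzyme of the anaphase-promoting complex in dividing cells, had 0.698 ± 0.009 FPKM in CEBPβ and 0.743 ± 0.123 in CEBPβ-A (SD, n = 3 each). Ube2cbp had 0.514, 0.622 and 0.435 FPKM in CEBPβ and 0.240, 0.212 and 0.388 in CEBPβ-A, without overlap, at levels near the floor.

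Lys63 chains are built by Ube2n together with an inactive partner, Ube2v1 or Ube2v2, downstream of Toll-like receptors and TRAF ligases. Ube2n (ENSMUSG00000074781.5) stood at 6.92, 8.76 and 6.23 FPKM in CEBPβ and at 7.98, 9.31 and 7.58 in CEBPβ-A, with overlapping groups (log2 fold change 0.17, SE 0.13, 95% interval -0.14 to 0.48, limma adjusted p = 0.652). Ube2v2 had 4.30, 5.06 and 2.60 FPKM against 3.36, 4.13 and 3.95 in CEBPβ-A. The lowest of these 6 values came from CEBPβ replicate 3, and the means of 3.99 ± 1.26 and 3.81 ± 0.404 differed by less than the spread (SD, n = 3 each).

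Ube2v1 (ENSMUSG00000078923.10, GRCm38 chromosome 2, 167607638 to 167632095) had 6.75, 7.24 and 5.28 FPKM in CEBPβ and 9.14, 6.70 and 28.8 in CEBPβ-A, so 1 library was far above the other 5. Its log2 fold change of 0.85 (adjusted p = 0.589 by limma, SE 0.45) was 0.26 without CEBPβ-A replicate 3. The annotation places 1673 of its 2721 exon bases in Gm20431 as well, a gene on the same strand. Gm20431 was listed at 30.1, 40.0 and 31.2 FPKM in CEBPβ, at 37.6 and 44.0 in CEBPβ-A replicates 1 and 2, and at 0 in CEBPβ-A replicate 3. Thus the library with the high value of Ube2v1 was the one with Gm20431 at 0. The sum of both was 40.2 ± 6.14 FPKM in CEBPβ and 42.1 ± 11.6 in CEBPβ-A (SD, n = 3 each), a ratio of 1.05 with overlapping groups. How the authors' program divides reads between such genes is not given, and the level of Ube2v1 is uncertain.

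**Figure D3:**
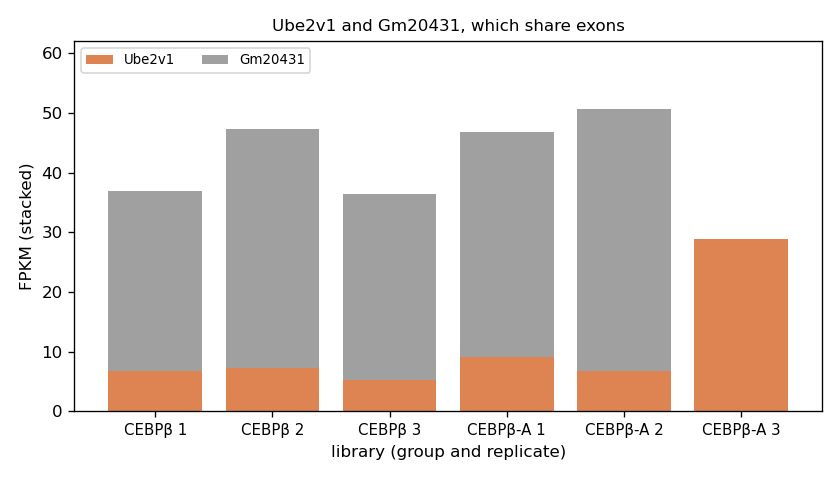
Stacked bars give FPKM of Ube2v1 (orange) and of Gm20431, which shares exons with it (grey), in each of the 6 libraries. In CEBPβ-A replicate 3 the whole bar, 28.8 FPKM, is Ube2v1, while in the other 5 libraries Ube2v1 holds 5.28 to 9.14 FPKM.

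The Ube2d and Ube2e enzymes work with many RING ligases and often place the first ubiquitin. Ube2d2a had 43.5, 43.7 and 38.2 FPKM in CEBPβ and 44.7, 46.8 and 40.4 in CEBPβ-A (log2 fold change 0.07, 95% interval -0.13 to 0.28). Ube2d3, the second E2 enzyme on which A20 is known to act, had 7.32, 8.52 and 5.79 FPKM against 7.38, 10.5 and 7.59 in CEBPβ-A (0.21, 95% interval -0.18 to 0.59). Both had groups that overlapped, as did Ube2d1, at 6.19, 6.996 and 5.72 FPKM against 5.93, 6.19 and 6.54. Ube2e1, Ube2e3 and Ube2w had log2 fold changes of 0.06, 0.08 and -0.03.

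Ube2l3, the E2 enzyme of linear chains and of Parkin, stood at 11.7, 20.3 and 11.6 FPKM in CEBPβ and at 12.1, 21.5 and 13.9 in CEBPβ-A. Replicate 2 of each group was thus well above the others, and the log2 fold change was 0.12 (95% interval -0.48 to 0.72). Its relative Ube2l6, which conjugates the interferon-induced ISG15, had 19.4, 18.6 and 23.7 FPKM against 20.5, 16.5 and 17.2 in CEBPβ-A. The groups overlapped (log2 fold change -0.17, 95% interval -0.45 to 0.10, limma adjusted p = 0.616). ISG15 itself, encoded by Isg15, had 49.7, 67.8 and 58.1 FPKM in CEBPβ and 47.8, 45.0 and 37.1 in CEBPβ-A, and these groups did not overlap, although the gene did not pass (log2 fold change -0.42, adjusted p = 0.588 by limma, SE 0.14). Uba7, the E1 enzyme of ISG15, and Herc6, its mouse ligase, had log2 fold changes of -0.13 and -0.40, and Usp18, which removes ISG15, of -0.78, none past the threshold.

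NEDD8 is placed on cullins by Ube2m and Ube2f, which activates cullin ligases. Ube2m (ENSMUSG00000005575.16, chromosome 7, 13035120 to 13038275) had the smallest p of all members. Its 11.8, 12.8 and 12.1 FPKM in CEBPβ lay below the 21.6, 15.1 and 17.0 in CEBPβ-A. The means were 12.2 ± 0.508 and 17.9 ± 3.38 FPKM (SD, n = 3 each), a 1.46-fold higher mean in CEBPβ-A, and a difference of 0.50 on the log2 scale (SE 0.13, 95% interval 0.20 to 0.79) did not pass (limma adjusted p = 0.588). Ube2f, which serves cullin 5, was the other E2 enzyme whose groups did not overlap, at 5.02, 4.55 and 4.50 FPKM against 4.30, 4.45 and 4.12 in CEBPβ-A (log2 fold change -0.10). The difference between its nearest libraries was small, and the direction was opposite to that of Ube2m. Nedd8 itself had a log2 fold change of 0.31, and the E1 subunits Uba3 and Nae1 of 0.09 and -0.08.

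Enzymes of Lys48 chains and of degradation at the endoplasmic reticulum showed means close to each other, except for Ube2g2, which removes misfolded proteins there. Ube2g2 (chromosome 10, 77622275 to 77645993) had 24.9, 10.3 and 10.1 FPKM in CEBPβ and 25.0, 18.3 and 28.2 in CEBPβ-A. CEBPβ replicate 1 thus lay with the CEBPβ-A libraries, and the log2 fold change of 0.73 had an interval from -0.03 to 1.48 (SE 0.33, limma adjusted p = 0.588). It was 1.13 without CEBPβ replicate 1 and lay between 0.52 and 0.90 with each other library left out. Ube2g1, which extends Lys48 chains, had 6.20, 6.25 and 5.66 FPKM against 5.19, 5.27 and 5.85, and Ube2r2, a partner of cullin ligases, had 20.7, 20.9 and 22.8 against 19.3, 22.5 and 24.0. The membrane-anchored Ube2j1 and Ube2j2 and the chain builder Ube2k had log2 fold changes of 0.00, 0.08 and 0.09. Thus 5 of the 6 genes of this group were positive, against 46.6% of all genes tested. Groups did not overlap for 0 of the 6, against 16.8% of all genes tested.

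Among the remaining E2 enzymes, Ube2a and Ube2b are the mouse forms of the DNA repair enzyme Rad6. Ube2a had 10.96, 9.39 and 10.2 FPKM in CEBPβ against 11.3, 10.5 and 12.4 in CEBPβ-A (log2 fold change 0.15), and Ube2b 25.6, 31.5 and 22.4 against 28.4, 30.5 and 24.4 (0.07). Ube2s, which extends chains for the anaphase-promoting complex, had a log2 fold change of 0.16. All 3 tested genes of the cell cycle and repair group were thus positive, against 46.6% of all genes tested, with overlapping groups. Ube2q2 had the lowest fold change of the family with all 6 libraries, at 17.6, 17.8 and 15.3 FPKM against 11.96, 17.5 and 10.8 (-0.33, SE 0.16, limma adjusted p = 0.589). Replicate 2 of CEBPβ-A was as high as the CEBPβ libraries there, and the value was -0.53 without it and -0.20 without CEBPβ-A replicate 3. Ube2o, a large hybrid of E2 and E3, had 5.25, 4.03 and 5.17 against 4.57, 4.71 and 3.84 FPKM, and Ube2h 17.2, 18.3 and 17.7 against 17.3, 17.6 and 15.6 FPKM. Ube2z, which receives ubiquitin from the E1 enzyme Uba6, had 26.5, 24.4 and 26.0 against 24.9, 27.1 and 27.6 FPKM, and Ube2q1 a log2 fold change of 0.09.

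Of the Trim genes of the cluster on mouse chromosome 7, relatives of the antiviral Trim5, 4 were tested. All 4 had their lowest value in CEBPβ-A replicate 3, as did 35.8% of all genes tested. All 4 had a negative fold change, as did 53.4% of all genes tested. Trim34a (ENSMUSG00000056144.14, 104244457 to 104262234) stood at 3.17, 3.42 and 3.62 FPKM in CEBPβ and at 2.58, 2.74 and 0.887 in CEBPβ-A, without overlap (log2 fold change -0.58, adjusted p = 0.588 by limma, SE 0.25). Without CEBPβ-A replicate 3 its log2 fold change was -0.27. Trim30a (ENSMUSG00000030921.17, 104409025 to 104465193), known to curb Toll-like receptor signalling through the TAB proteins, had 34.8, 41.0 and 33.3 FPKM against 37.1, 30.2 and 22.03 in CEBPβ-A. Its groups overlapped, with a log2 fold change of -0.30 (adjusted p = 0.596 by limma, SE 0.18) that was -0.11 without that library. Trim34b had a log2 fold change of -0.28 and Trim12c of -0.21, which were -0.13 and 0.02 without CEBPβ-A replicate 3. Of the neighbours below the filter, Trim6 stood at 0.894, 1.24 and 1.24 FPKM in CEBPβ and 0.972, 1.16 and 0.286 in CEBPβ-A. Trim5 stood at 0.448, 0.546 and 0.631 FPKM against 0.511, 0.261 and 0.277, with its lowest value in CEBPβ-A replicate 2. These genes are relatives of each other, and how alike their transcripts are was not measured here. Reads may be shared among them, so each single level is uncertain. The 4 tested genes may therefore not be separate observations.

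The Trim genes of antiviral sensing were all negative, 6 of 6 where 53.4% of all genes were, and 2 of the 6 had groups separated downward, as did 8.86% of all genes. Trim21 (ENSMUSG00000030966.13, chromosome 7, 102557921 to 102565486), the cytosolic receptor for antibody on incoming virus, had 6.69, 6.55 and 6.80 FPKM in CEBPβ and 6.03, 5.201 and 5.21 in CEBPβ-A. Every CEBPβ-A library lay below every CEBPβ library, at means of 5.48 ± 0.474 and 6.68 ± 0.127 (SD, n = 3 each). The log2 fold change was -0.25 (SE 0.09, 95% interval -0.45 to -0.04, limma adjusted p = 0.588) and stayed at -0.22 without CEBPβ-A replicate 3. Trim56, linked to STING signalling, had 10.97, 10.2 and 9.36 FPKM against 9.25, 8.57 and 6.52, also without overlap (log2 fold change -0.30, and -0.17 without that library). Trim25, the ligase that activates the RNA sensor RIG-I, had 29.0, 30.1 and 24.6 FPKM against 25.9, 26.2 and 19.1, and its groups overlapped (-0.23, and -0.09 without it). Trim26 had 3.88, 8.23 and 8.80 FPKM against 3.75, 5.68 and 3.72, with CEBPβ replicate 1 at the level of the CEBPβ-A libraries. Its log2 fold change of -0.52 was -0.84 without CEBPβ replicate 1 and -0.34 without CEBPβ replicate 3. Trim14 had a log2 fold change of -0.18, which was -0.02 without CEBPβ-A replicate 3 and -0.36 without CEBPβ-A replicate 1. That of Trim65 was -0.16, and -0.08 without CEBPβ-A replicate 1.

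**Figure D4:**
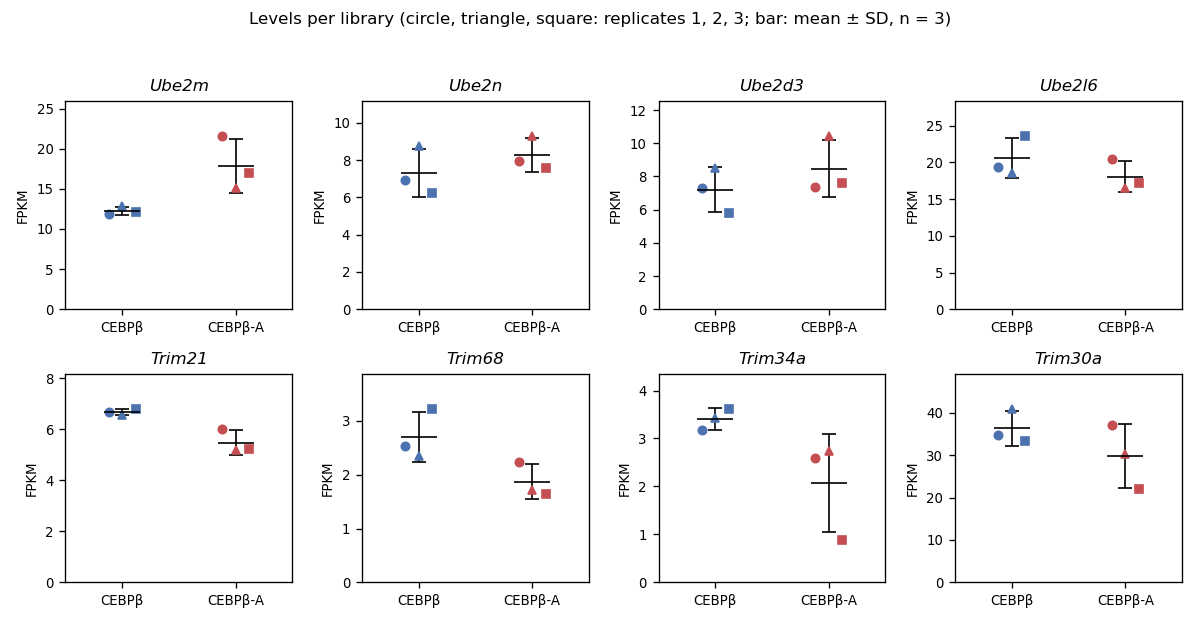
FPKM of 4 Ube2 genes (top) and 4 Trim genes (bottom) in each library, with circle, triangle and square for replicates 1, 2 and 3 and bars for mean ± SD (n = 3 per group). The groups do not overlap for Ube2m, Trim21, Trim68 and Trim34a and overlap for Ube2n, Ube2d3, Ube2l6 and Trim30a, and none of the 8 passed the test.

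Interferon response genes outside both families are given beside these Trim genes by library. Of 37 such genes 35 were tested, and 0 passed in limma. A lower mean in CEBPβ-A was found for 33 of the 35 (53.4% of all genes), groups separated downward for 12 (8.86% of all genes) and an unadjusted p under 0.05 downward for 19 (4.42% of all genes). The list's median was -0.09, -0.35 and -0.70 in CEBPβ-A replicates 1, 2 and 3 and -0.10, 0.11 and 0.00 in the CEBPβ replicates, on the log2 scale. The medians of the 4 Trim genes of the chromosome 7 cluster were -0.07, -0.17 and -0.67 in CEBPβ-A, and those of the 6 antiviral Trim genes -0.13, -0.20 and -0.52. In CEBPβ replicates 1, 2 and 3 they were -0.07, 0.06 and -0.02 for the cluster and 0.03, 0.01 and -0.04 for the antiviral genes. All 3 lists were thus lowest in CEBPβ-A replicate 3. Among the CEBPβ libraries the cluster had the same order as the interferon list, and the antiviral Trim genes had another. The lowest of the 6 libraries was CEBPβ-A replicate 3 for 32 of the 35 interferon response genes, against 35.8% of all genes tested. Of the Trim genes with the response element letters 5 were tested (Trim12c, Trim21, Trim26, Trim30a and Trim34a). Each of them is in the chromosome 7 cluster or the antiviral list above, so they are the same genes again and no separate comparison. All 5 were negative, with a median log2 fold change of -0.30. The 17 tested with a promoter window and without the letters had 13 negative and a median of -0.10. In CEBPβ-A replicate 3 the medians were -0.69 with the letters and -0.24 without them. The part of the interferon response in the Trim values was not tested.

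**Figure D5:**
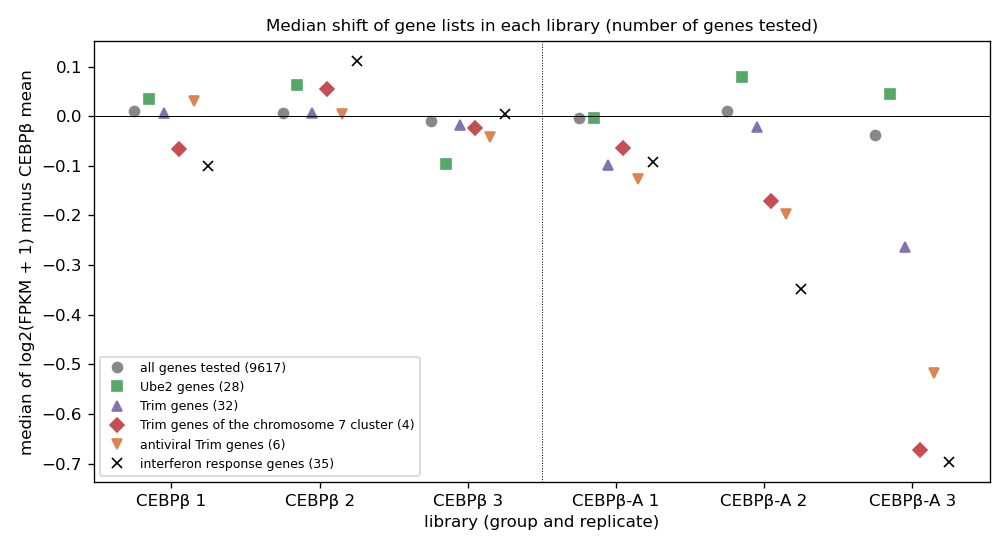
Each point is the median over a gene list of log2(FPKM + 1) minus the CEBPβ mean, by library, with the number of genes tested in the legend. In CEBPβ-A replicate 3 the Trim genes of the chromosome 7 cluster lie at -0.67, the antiviral Trim genes at -0.52 and the interferon response genes at -0.70, while the Ube2 genes lie at 0.04.

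Of the 3 tested Trim genes of NF-κB and cytokine signalling 2 were positive (46.6% of all genes tested) and 1 negative, with overlapping groups. Trim8, which promotes NF-κB activation by TNF, had 24.8, 22.1 and 25.3 FPKM in CEBPβ and 22.6, 23.9 and 23.4 in CEBPβ-A (log2 fold change -0.04, 95% interval -0.22 to 0.14). Trim27 had 6.22, 5.60 and 6.16 FPKM against 5.40, 6.71 and 6.46. Trim13, a ligase of the endoplasmic reticulum, had the highest log2 fold change of the Trim genes with all 6 libraries, at 6.56, 8.02 and 4.75 FPKM against 7.64, 7.59 and 8.12 (0.26, SE 0.16, limma adjusted p = 0.598), and CEBPβ replicate 2 lay within the range of the CEBPβ-A libraries. Its log2 fold change was 0.09 without CEBPβ replicate 3 and 0.41 without CEBPβ replicate 2. Trim38 was not analysed here.

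The chromatin regulators of the TIF1 group differed among themselves. Trim28, the corepressor KAP1 that silences transposable elements, had 24.0, 22.1 and 21.4 FPKM in CEBPβ and 22.7, 25.1 and 26.9 in CEBPβ-A (log2 fold change 0.14). Trim24 had 1.65, 1.73 and 1.61 FPKM against 1.22, 1.51 and 1.04, without overlap (-0.24, SE 0.10, limma adjusted p = 0.588), and Trim33, which acts on SMAD proteins, 4.86, 4.596 and 3.76 against 4.11, 4.37 and 2.89 (-0.18, and -0.04 without CEBPβ-A replicate 3). Trim28 was thus higher in mean and the other two lower, with none past the threshold. Of the NHL repeat group, Trim3 had 8.15, 7.22 and 8.05 FPKM against 7.13, 9.24 and 7.60, and Trim32, a ligase of STING, 6.49, 6.01 and 5.83 against 6.04, 6.45 and 5.66, so both had overlapping groups and log2 fold changes of 0.02 and -0.01.

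Of 14 tested Trim genes outside these groups, 12 were negative (53.4% of all genes tested) and 2 had groups that did not overlap, both lower. These 2 are 14.3% of the 14, near the 16.8% of all genes separated in either direction, of which 8.86% were downward. Trim68 (ENSMUSG00000073968.4, chromosome 7, 102677582 to 102687327) had the smallest p of the Trim genes, with 2.53, 2.35 and 3.22 FPKM in CEBPβ and 2.24, 1.72 and 1.63 in CEBPβ-A. Its log2 fold change was -0.37 (SE 0.13, 95% interval -0.66 to -0.07, limma adjusted p = 0.588) and -0.31 without CEBPβ-A replicate 3. Trim35, known to act on the interferon factor Irf7, had 15.6, 15.9 and 14.7 FPKM against 14.3, 13.01 and 12.9, also without overlap (log2 fold change -0.19, and -0.16 without that library). Trim11, at 16.9, 15.4 and 21.96 FPKM against 19.7, 16.6 and 19.1, and Trim62, a ligase of CARD9, at 2.74, 3.09 and 2.91 against 2.74, 3.21 and 2.95, were the 2 positive genes. The other 10 (Trim16, Trim23, Trim29, Trim36, Trim37, Trim39, Trim41, Trim44, Trim46 and Trim47) had log2 fold changes from -0.21 to -0.01.

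Other parts of the ubiquitin system, taken from chosen lists, held 0 genes past the threshold in either direction. Of 14 ubiquitin and ubiquitin-like genes 11 were positive (46.6% of all genes tested), with a median log2 fold change of 0.19. Against the CEBPβ mean their median was 0.03, 0.05 and 0.32 in CEBPβ-A replicates 1, 2 and 3. The polyubiquitin gene Ubb stood at 332 ± 22.5 FPKM in CEBPβ and at 356 ± 52.4 in CEBPβ-A (SD, n = 3 each). The median coding transcript of that list had 823.75 bases. The 10 E1 enzymes had a median of -0.03 with 4 positive. Of 8 proteins of the E2 fold with other names 4 were positive (median -0.04), among them Tsg101, an inactive E2 relative of the endosomal sorting machinery, at 23.3 ± 1.63 FPKM in CEBPβ-A against 19.4 ± 0.590 without overlap (log2 fold change 0.25, adjusted p = 0.588 by limma, SE 0.08). Atg3 was separated downward, at 34.2 ± 1.10 FPKM in CEBPβ-A against 36.7 ± 0.574 (log2 fold change -0.10, adjusted p = 0.609 by limma). Separated genes were thus 1 upward and 1 downward, 25% of that list against 16.8% of all genes tested. Of 55 RING, HECT and cullin ligases and their subunits 39 were negative (53.4% of all genes tested), with a median of -0.05. CEBPβ-A replicate 3 was the lowest library for 43.6% of them, against 35.8% of all genes tested. Groups were separated downward for 6 and upward for 1, together 12.7% against 16.8% of all genes in either direction. Birc3, a ligase of TNF receptor complexes, had the smallest p of these, at 7.78 ± 0.756 FPKM in CEBPβ-A and 10.3 ± 0.417 in CEBPβ (SD, n = 3 each; log2 fold change -0.37, adjusted p = 0.588 by limma, SE 0.09). Pml, a TRIM protein by structure, had a log2 fold change of -0.05, with 1 of 7 such genes tested.

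Several levels are limited by neighbouring genes. The kit marks strand, but whether the counting used it is not given in the sources used here, and Trim14 shares 1356 of 4338 exon bases with Nans, Ube2l3 1670 of 5841 with Ydjc and Ube2e1 718 of 4457 with Nkiras1, all on the opposite strand. On the same strand, Trim47 and Trim65 share 225 bases with each other, and Ube2g2 shares 166 of 2431 with Gm49325. Listed loci equal those of the reference annotation for 28 of 30 Ube2 genes and 33 of 35 Trim genes.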

How the data were processed

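Libraries were made per the labels' protocols with the KAPA Stranded RNA-Seq kit from TRIzol RNA. The authors deposited FPKM per gene for 6 libraries, per the file headers, and the submitters' processing notes name GRCm38. For the aligner, counting program, annotation release and listing rule the entry is: not given in the sources used here. All 6 columns were matched to samples by their descriptions. Differences (CEBPβ-A minus CEBPβ) were fitted with limma (version 3.58.1, R 4.3.3) on log2(FPKM + 1) with an intensity trend and no covariate. Genes with a mean of at least 1 FPKM were tested, two-sided, with Benjamini-Hochberg adjustment over all of them. The procedure was tested on simulated data with planted changes larger than that of any member. That check therefore does not bear on finding changes of the size seen here. Intervals are limma's 95% intervals. Transcript lengths are medians over coding transcripts of GENCODE M21, and promoters are from RefSeq (GRCm38.p6). Members, gene lists and the rule for named genes were chosen with earlier results of these data known. The rule names every member past the threshold, the 6 with the smallest p each way per family, the highest of each role group and a fixed set of genes. Alternatives covered the pseudocount (0.1 and 0.5), the filter, scaling, the limma settings, the replicate block, length and GC content, a fold change of at least 1.5 and each library left out. Values of 1 Ube2 gene and of 1 ubiquitin gene are counted in their families and are not reported here.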

Additional observations from a re-analysis of the deposited data

How the results depend on the processing

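In each of the 17 refits and with a fold change of at least 1.5 added, 0 Ube2 and 0 Trim genes passed; the smallest adjusted p of any member lay between 0.372 (replicate block) and 0.781 (without CEBPβ replicate 2). Over all genes tested the count of 5 became 0 with a mean FPKM of at least 5, 2 with quantile normalization, 1 with the replicate block, and 1 to 9 with single libraries left out. The median log2 fold change of Ube2 genes ranged from 0.002 to 0.092 and that of Trim genes from -0.19 to -0.048 over all settings. Ube2 genes whose groups do not overlap numbered 1 instead of 2 with a mean FPKM of at least 5 and with quantile normalization, and 4 to 8 with single libraries left out. With no filter they numbered 3 of 30, where 16.7% of all genes did not overlap. Trim genes numbered 3 instead of 6 with a mean FPKM of at least 5, which tests fewer genes (18 Trim genes), and 7 to 11 with single libraries left out. With 2 against 3 libraries more genes are separated by construction (22.2% to 34.0% of all genes). Deviations of same-numbered libraries from their group means correlated at 0.0993, 0.247 and 0.259, above every pair of unlike numbers (-0.245 to 0.0869). The deviations of a gene sum to 0 within each group, so these correlations depend on each other. Positive values for same numbers push those for unlike numbers down. Mitochondrial genes held 4.62%, 6.48% and 3.78% of FPKM in CEBPβ replicates 1, 2 and 3, and 4.88%, 6.32% and 4.28% in CEBPβ-A. The labels do not say whether the numbers pair the samples, and the main test used no pairing. With the replicate block the smallest adjusted p of a member was 0.372 by limma, and 0 Ube2 and 0 Trim genes passed. Each number occurs once per group, so the block leaves fold changes as they are, and the medians of 0.067 and -0.13 say nothing on pairing. Depth is unknown, and 3 libraries per group limit the precision.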
